A study of Caenorhabditis elegans with 6 samples.

Results

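The genes described are 10 of the 21951 in the deposited count table: dpy-4, dpy-5, dpy-13, dpy-14, dpy-17, sqt-3 and lon-3, which encode collagens that shape the body of Caenorhabditis elegans, and col-17, col-73 and col-20, a run of collagen genes on cosmid F11G11. They were chosen by name with their read counts in exposed and control animals in view, because they split into strong falls and strong rises, so their changes are given as a description with no test. The study sequenced poly(A)-enriched RNA of whole wild-type animals, collected as egg-bearing young adults, in 6 libraries. Of these, 3 libraries came from animals exposed to 100 mM ethyl carbamate for 24 h, 3 came from controls, and no other agent or allele is named. Ethyl carbamate, also called urethane, is a carcinogen found in fermented food and drink. The prefix EV stands in the column names of all 6 libraries without explanation. RNA of a whole animal cannot tell fewer cells that express a gene apart from less of its RNA per cell.

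The cuticle of the nematode is a layered coat of cross-linked collagens that the epidermis secretes and rebuilds at each molt. Circular furrows divide its surface into raised rings, the annuli, and different collagens build each part. During larval life the collagen genes are switched on in successive waves within every molting cycle, with furrow collagens such as dpy-7 known to come before others such as sqt-1. Loss of a dpy gene makes the animal short and stout (dumpy), loss of lon-3 makes it long, and sqt alleles can also twist it. Among the body-shape genes, DPY-13 is known to lie in the annuli, and DPY-4 and DPY-5 are usually placed with it. For dpy-14, dpy-17, sqt-3 and lon-3 the files hold nothing on position in the cuticle, so they are called body-shape collagens below.

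Depth was alike in the groups, with 20176242 to 21258740 counts in the ethyl carbamate libraries and 19026133 to 22416213 in the control libraries. Of 14705 genes with enough reads, 40.0% were called higher in ethyl carbamate and 36.3% lower (edgeR quasi-likelihood test, Benjamini-Hochberg adjusted p under 0.05), and the share of calls that were higher was 52.4%. It was 67.9% with libraries scaled by size only, which shifts the median gene up by 0.19 on the log2 scale, and 39.3% with limma on quantile-normalized FPKM, where the median gene shifts down by 0.16. That setting also changes the tool, the unit and the genes tested (13917), and limma on log2(FPKM + 0.1) without quantile normalization gave 47.5% and a shift of −0.083. Markers of muscle, intestine, neurons, germline and pharynx were all present in the whole-animal RNA. All 10 collagen genes passed the filter on low counts.

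The 3 annulus genes were nearly silent after exposure. The gene dpy-13 (F30B5.1; chromosome IV, 4235614 to 4236706) had 15, 6 and 7 reads in the ethyl carbamate libraries, against 1063, 1868 and 1519 in the control libraries. For dpy-5 (F27C1.8, chromosome I, 5432158 to 5433054) they were 18, 8 and 13 in the ethyl carbamate libraries and 979, 1696 and 1332 in the control libraries. For dpy-4 (Y41E3.2, chromosome IV, 14985543 to 14986782) they were 22, 14 and 5 in the ethyl carbamate libraries and 1031, 1849 and 1500 in the control libraries. In each of the 3 genes, every exposed library lay far below every control library. On a scale that corrects for length, dpy-13 stood at 0.427 ± 0.243 FPKM in exposed animals and at 76.8 ± 14.8 FPKM in controls (SD, n = 3 each, here and below). All coordinates come from the deposited file, which names no genome build. For dpy-5 the level was 0.648 ± 0.272 FPKM in exposed animals and 75.8 ± 14.7 FPKM in controls, and for dpy-4 it was 0.613 ± 0.400 FPKM in exposed animals and 74.2 ± 15 FPKM in controls. The 3 genes thus had almost the same level per length in controls, with library ranges that overlapped. The fold changes fitted by edgeR were 174-fold lower for dpy-13, 113-fold lower for dpy-5 and 117-fold lower for dpy-4. With so few exposed reads, counting error alone gives a wide interval for the ratio of pooled reads: 123 to 268 for dpy-13, 83.9 to 162 for dpy-5 and 87.9 to 167 for dpy-4 (95% exact Clopper-Pearson, counting error only). The gene dpy-4 lies wholly inside atln-2 (Y41E3.3), an atlastin-related gene on the opposite strand, which had 8.60 ± 0.60 CPM in exposed animals and 2.98 ± 0.23 CPM in controls, and rose by 1.52 on the log2 scale (edgeR adjusted p = 6.47e-09). CPM are read counts scaled to the size of each library. Whether the strand of reads was used in counting is not given in the sources used here, and the part of atln-2 reads in the few exposed dpy-4 reads was not tested.

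**Figure D1:**
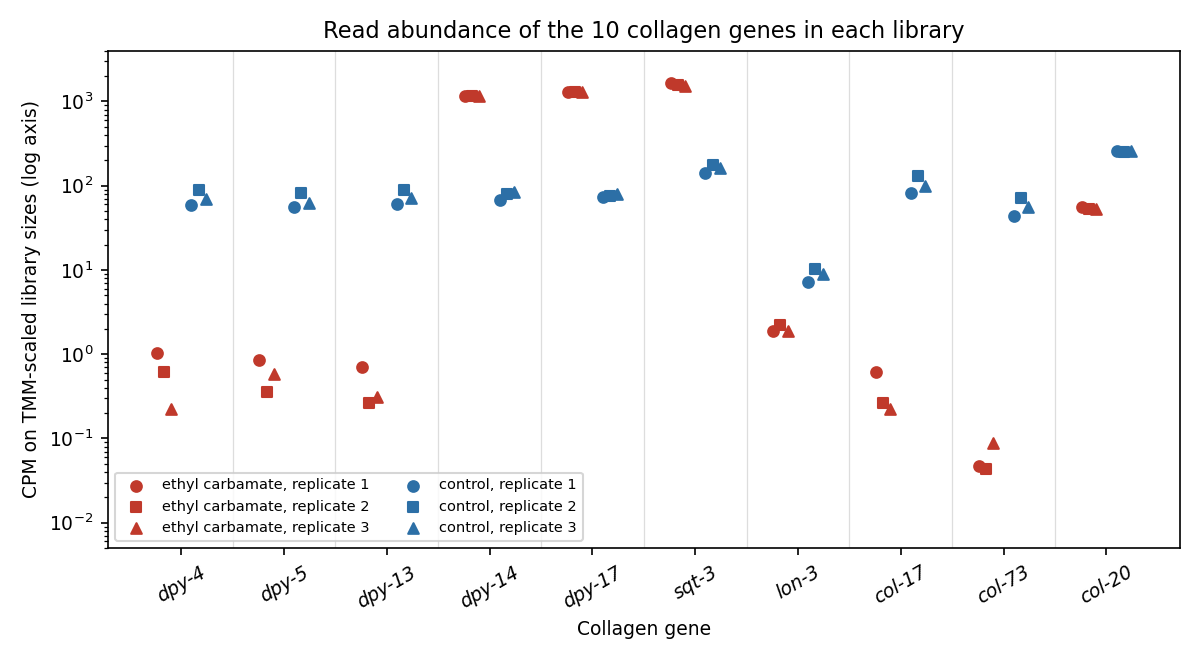
CPM of the 10 collagen genes in each library on a log axis, ethyl carbamate libraries left of control libraries for each gene and one marker shape per replicate. The exposed libraries lie below the controls for 7 genes and above them for dpy-14, dpy-17 and sqt-3, with no overlap in any of the 10.

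The body-shape collagens dpy-14, dpy-17 and sqt-3 moved the other way. Procollagen SQT-3 is known to be cut by the astacin protease DPY-31, DPY-17 is known to be needed for the secretion of SQT-3, and loss of dpy-14 makes animals dumpy. Reads of dpy-17 (F54D8.1, chromosome III, 5107328 to 5108589) numbered 27369, 29382 and 28830 in the ethyl carbamate libraries, against 1292, 1558 and 1688 in the control libraries. For dpy-14 (H27M09.4, chromosome I, 6843595 to 6845136) they were 24474, 26270 and 25937 in the ethyl carbamate libraries and 1177, 1647 and 1788 in the control libraries. For sqt-3 (F23H12.4, chromosome V, 12352994 to 12354314) they were 35006, 35607 and 34327 in the ethyl carbamate libraries and 2456, 3683 and 3503 in the control libraries. For each gene the 3 exposed libraries lay close together and far above every control library. Per length, the exposed animals had 1124 ± 3.71 FPKM of dpy-17, 1090 ± 0.41 FPKM of dpy-14 and 1331 ± 53.3 FPKM of sqt-3. The controls had 69.1 ± 2.08 FPKM of dpy-17, 75.4 ± 7.71 FPKM of dpy-14 and 141 ± 15.2 FPKM of sqt-3. In the WBcel235 annotation a noncoding RNA gene lies opposite sqt-3, and its part in the sqt-3 reads was not tested. The fitted changes were 16.9-fold higher for dpy-17, 14.9-fold higher for dpy-14 and 9.79-fold higher for sqt-3. Within a library the ratio of dpy-14 to dpy-17 (FPKM) was 0.967, 0.967 and 0.973 after exposure and 0.985, 1.14 and 1.15 in controls, so these genes kept close to equal levels in both groups. The ratio of dpy-17 to sqt-3 was 0.810, 0.855 and 0.870 after exposure and 0.545, 0.438 and 0.499 in controls. An exposed library thus held more dpy-17 for each sqt-3 transcript than any control library did.

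The changes set apart genes that had stood side by side. In controls, dpy-13, dpy-5, dpy-14, dpy-4 and dpy-17 lay within 69.1 to 76.8 FPKM, and each overlapped the next in that order. In exposed animals the lowest dpy-14 library had 1089 FPKM, while the highest library of dpy-4, dpy-5 or dpy-13 had 1.02 FPKM. The ratio of dpy-17 to dpy-13 was 1596, 4284 and 3603 in the ethyl carbamate libraries, against 1.06, 0.730 and 0.972 in the control libraries.

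A smaller fall was seen for lon-3 (ZK836.1, chromosome V, 12197433 to 12198625), whose dose is known to set body length. It had 40, 51 and 43 reads in the ethyl carbamate libraries, against 124, 212 and 189 in the control libraries. The groups did not overlap, and the fitted change was 4.35-fold lower (pooled reads 3.62 to 5.34, 95% counting interval). At 1.78 ± 0.17 FPKM in exposed animals and 8.04 ± 1.38 FPKM in controls it was the least abundant of the 10 genes in controls. It lies wholly inside ogdh-2 (ZK836.2) on the opposite strand, which had 103 ± 2.50 CPM in exposed animals and 137 ± 2.57 CPM in controls. The gene lon-3 itself had 2.01 ± 0.20 CPM in exposed animals and 8.73 ± 1.55 CPM in controls. Reads of the host gene fell by 0.41 on the log2 scale (edgeR adjusted p = 4.04e-09), and their part in the lon-3 counts was not tested.

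The F11G11 genes sit in a row on the minus strand of chromosome II, in the order col-17 (F11G11.10, 4866436 to 4867574), col-20 (F11G11.11, 4869607 to 4870791) and col-73 (F11G11.12, 4872098 to 4873127). They span 6692 bases, with gaps of 2032 and 1306 bases and no other gene of the count table between them. The outer genes fell almost to nothing and the middle gene did not. Reads of col-73 numbered 1, 1 and 2 in the ethyl carbamate libraries, against 763, 1476 and 1182 in the control libraries. Those of col-17 numbered 13, 6 and 5 in the ethyl carbamate libraries and 1447, 2680 and 2111 in the control libraries. For col-20 the counts were 1188, 1218 and 1193 in the ethyl carbamate libraries and 4516, 5196 and 5552 in the control libraries. Thus the exposed libraries still held at least 1188 reads of col-20 each, and at most 2 of col-73. Per length, exposed animals had 0.0603 ± 0.0253 FPKM of col-73, 0.330 ± 0.193 FPKM of col-17 and 50.4 ± 1.48 FPKM of col-20. Controls had 59.2 ± 14, 96.9 ± 21.4 and 248 ± 6.23 FPKM of col-73, col-17 and col-20 in the same order. The fitted changes were 863-fold lower for col-73, 284-fold lower for col-17 and 4.74-fold lower for col-20. With 4 exposed reads of col-73 in all, the ratio of its pooled reads was 957, with a counting interval of 373 to 3513. The ratio of col-20 to col-17 (FPKM) was 94.4, 210 and 247 in the ethyl carbamate libraries, against 3.22, 2.00 and 2.72 in the control libraries.

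**Figure D2:**
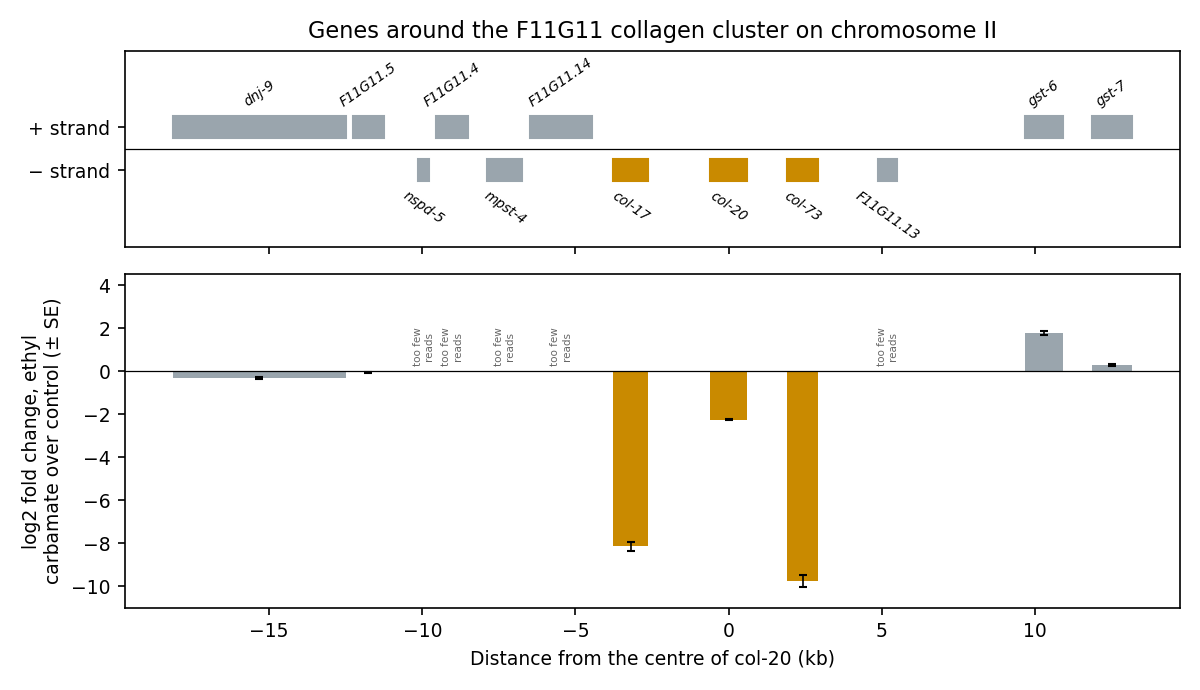
Genes of the count table within 10 kb of col-17, col-20 or col-73 by distance from the centre of col-20 in kb (top, by strand), and the fitted log2 fold change of each gene with enough reads (bottom, bars with SE from all 6 libraries). The bars of col-17 and col-73 reach −8.15 and −9.75, that of col-20 between them −2.25, and the neighbours stay between −0.31 and 1.76.

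No gene next to the collagen run fell to this degree. Of the 9 other genes within 10 kb, 5 had too few reads to test, namely nspd-5, F11G11.4, mpst-4, F11G11.14 and F11G11.13, with at most 11 reads in either group. The glutathione S-transferase genes gst-6 (F11G11.3) and gst-7 (F11G11.2) lie on the other strand beyond col-73. The first had 20.6 ± 0.42 CPM in exposed animals and 6.10 ± 0.54 CPM in controls and rose by 1.76 on the log2 scale (SE 0.10, edgeR adjusted p = 8.42e-13). The second had 308 ± 7.05 CPM in exposed animals and 249 ± 12 CPM in controls and rose by 0.31 (SE 0.04, edgeR adjusted p = 8.98e-07). On the side of col-17, the chaperone-related gene dnj-9 had 53.2 ± 3.38 CPM in exposed animals and 66.0 ± 4.81 CPM in controls and fell by 0.31 (edgeR adjusted p = 5.34e-05), which missed the threshold with libraries scaled by size only (adjusted p = 0.0854). The gene F11G11.5, with 84.9 ± 2.15 CPM in exposed animals and 88.3 ± 1.08 CPM in controls, was not called (edgeR adjusted p = 0.212). It was called lower with limma on log2(FPKM + 0.1) and log2(FPKM + 1) (adjusted p = 0.0145 and 0.0135), and higher with libraries scaled by size only (edgeR adjusted p = 0.00859) and with limma on quantile-normalized FPKM (adjusted p = 0.00452), so no direction is given for F11G11.5. Within 10 kb of any of the 10 genes, 33 other genes were tested, of which 10 were called higher and 18 lower. That is 84.8% called, where 76.3% of all tested genes were, 40.0% higher and 36.3% lower. None of the 33 was 10-fold lower. Only 0.245% of all tested genes were, so none was likely among 33.

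Set against the background, the changes were as follows. All 7 falls and 3 rises had groups that did not overlap, which held for 77.8% of all tested genes, 37.1% lower and 40.8% higher. A fitted fall of at least 2-fold was seen in 7 of the 10 genes and in 3.37% of all tested genes, one of at least 10-fold in 5 of the 10 and in 0.245% of all, and one of at least 50-fold in 5 of the 10 and in 0.0816% of all. A rise of at least 2-fold was seen in 3 of the 10 and in 23.9% of all, and one of at least 10-fold in 2 of the 10 and in 1.66% of all. These shares are given for scale only, since the genes were picked on this contrast. On the log2 scale the median fold change was −4.53 over the 10 genes and 0.047 over all tested genes. Over the 15 other settings tried, the fold changes of the 10 genes kept their signs.

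Among the 127 tested cuticle collagen genes, col-73, col-17 and dpy-13 had the 3 lowest fold changes, and dpy-4 and dpy-5 the sixth and the seventh lowest. The gene dpy-17 had the third highest, dpy-14 the fifth highest and sqt-3 the tenth highest. By FPKM, sqt-3, dpy-17 and dpy-14 took places 1, 2 and 3 among 174 cuticle collagen genes in exposed animals, and places 15, 27 and 24 in controls. The gene dpy-13 took place 118 in exposed animals and place 22 in controls, and col-73 place 157 in exposed animals and place 29 in controls. The 10 genes together made up 35.3%, 37.3% and 37.5% of all cuticle collagen CPM in the ethyl carbamate libraries, against 6.54%, 8.49% and 7.76% in the control libraries. Nearly all of the exposed share came from dpy-14, dpy-17 and sqt-3, which summed to 3961 to 4070 CPM there and to 283 to 332 CPM in controls. The other 7 genes summed to 56.4 to 60.8 CPM in exposed and 569 to 722 CPM in control libraries. The 164 cuticle collagen genes outside the 10 summed to 6693 to 7558 CPM in exposed and 11351 to 12181 CPM in control libraries. All cuticle collagens together summed to 10710 to 11688 CPM in exposed and 12307 to 13032 CPM in control libraries. The total thus moved less than its parts, and the rise within it came from dpy-14, dpy-17 and sqt-3, which were chosen with that rise in view.

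**Figure D3:**
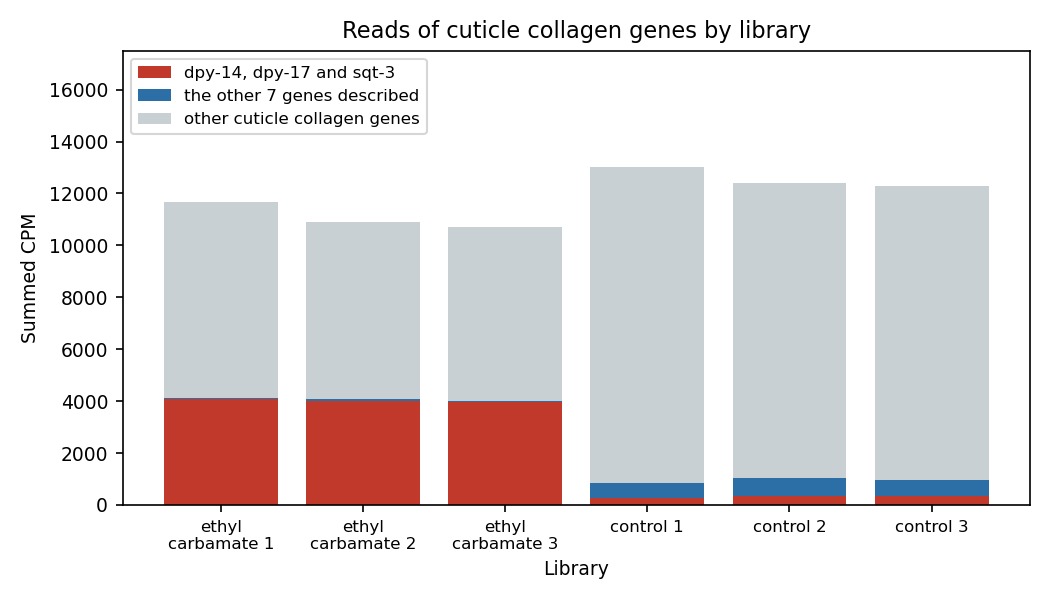
Summed CPM of 174 cuticle collagen genes in each library, ethyl carbamate libraries on the left, stacked as dpy-14, dpy-17 and sqt-3, the other 7 genes described, and all remaining collagen genes. The 3 genes that were higher reach 3961 to 4070 CPM in exposed libraries, against 283 to 332 CPM in control libraries.

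The remaining collagens went both ways as well. Of 117 other tested cuticle collagen genes, 57 were called higher and 49 lower by edgeR, beside 40.0% and 36.3% of all tested genes. On quantile-normalized FPKM, 42 of 110 were called higher and 51 lower. There 3962 of all 13917 tested genes were called higher and 6132 lower. In the edgeR fit the median log2 change of the 117 collagens was 0.40. A rise of 2-fold or more was found in 47 of them, beside 23.9% of all tested genes. A fall of that size was found in 40 of the 117, beside 3.37% of all tested genes. Of a list of other body-shape and strut collagens, 4 of the 7 genes had enough reads, and all 4 were called lower. These were rol-8, sqt-1, rol-6 and sqt-2, genes whose alleles make animals roll or squat. The gene rol-8 had 0.452 ± 0.128 CPM in exposed animals and 44.1 ± 10.1 CPM in controls, and fell by 6.60 on the log2 scale (edgeR adjusted p = 1.38e-16). The gene sqt-1 had 0.379 ± 0.214 CPM in exposed animals and 33.0 ± 6.87 CPM in controls (log2 −6.44), and rol-6 had 0.470 ± 0.221 CPM in exposed animals and 37.96 ± 7.15 CPM in controls (log2 −6.34). The gene sqt-2, which is named after its value was seen, had 1.16 ± 0.28 CPM in exposed animals and 39.9 ± 8.20 CPM in controls (log2 −5.11). Beside rol-8, the other collagens with the largest changes were col-90 and col-41, which fell by 7.15 and 6.93 on the log2 scale (edgeR adjusted p = 1.70e-16 and 2.61e-17).

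All 6 furrow collagen genes were called, 4 higher and 2 lower, under every setting tried. In the main fit 76.3% of all tested genes were called, 40.0% higher and 36.3% lower. The genes dpy-10, dpy-7, dpy-3 and dpy-2 rose by 2.52, 2.39, 2.30 and 2.18 on the log2 scale (edgeR adjusted p of 1.57e-16 or lower in each of dpy-10, dpy-7, dpy-3 and dpy-2). Of these, dpy-10 had the highest level in exposed animals, 144 ± 2.57 CPM, against 24.97 ± 3.10 CPM in controls. The genes dpy-8 and dpy-9 fell by 3.81 and 3.56. The first had 0.964 ± 0.189 CPM in exposed animals and 13.6 ± 1.79 CPM in controls. The furrow list thus held both rises and falls.

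**Figure D4:**
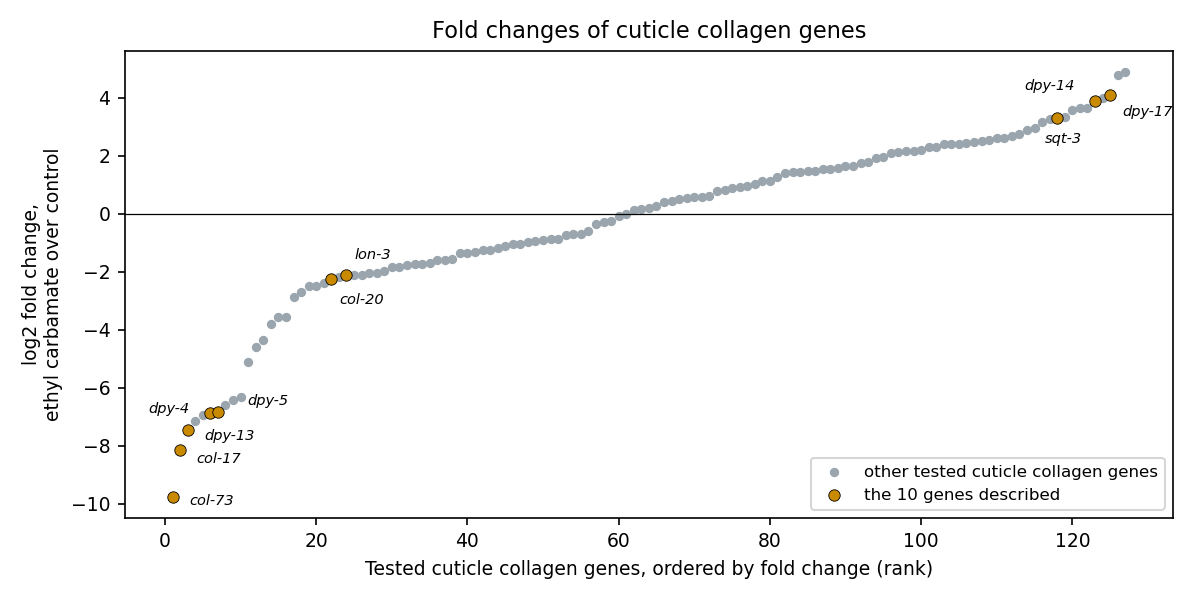
Fitted log2 fold change (ethyl carbamate over control) of 127 tested cuticle collagen genes, ordered from the lowest to the highest, with the 10 genes described in colour and named. Of the 10, 5 lie at the steep lower end, lon-3 and col-20 near −2, and dpy-14, dpy-17 and sqt-3 between 3.29 and 4.08.

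Among the control libraries the 10 genes varied unequally, which is given as a description, since the control reads were in view when the genes were chosen. Replicate 2 was the highest and replicate 1 the lowest control library, in CPM, for dpy-4, dpy-5, dpy-13, sqt-3, lon-3, col-17 and col-73, 7 of the 10 genes, where 17.2% of all tested genes had that order. The ratio of control replicate 2 to control replicate 1 was 1.51 for dpy-4, 1.45 for dpy-5, 1.48 for dpy-13, 1.56 for col-17 and 1.62 for col-73, the 5 genes that fell most. It was 1.44 for lon-3, 1.26 for sqt-3, 1.18 for dpy-14, 1.01 for dpy-17 and 0.966 for col-20. A ratio above 1.4, a value set after the ratios were seen, was found in 0.772% of the 7384 tested genes whose control means lay in the range of these 10. The coefficient of variation among controls was 19.9% to 24.2% in those 5 genes, against a median of 4.19% over the 7384 genes and against 2.19% to 2.96% that counting alone would give. Of the neighbours on F11G11, col-17 had 22.6% and col-20 had 2.12%. Of 10 other collagens with at least 5 CPM in controls and a fall of at least 10-fold, 9 had control replicate 2 highest and control replicate 1 lowest, and their median ratio was 1.47. In the remaining 64 collagens with at least 5 CPM in controls, 29 did, with a median ratio of 1.11. The ratio was above 1.4 in 70.0% of those 10 collagens and in 29.7% of those 64. These are single libraries, and what sets control replicates 1 and 2 apart was not tested.

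**Figure D5:**
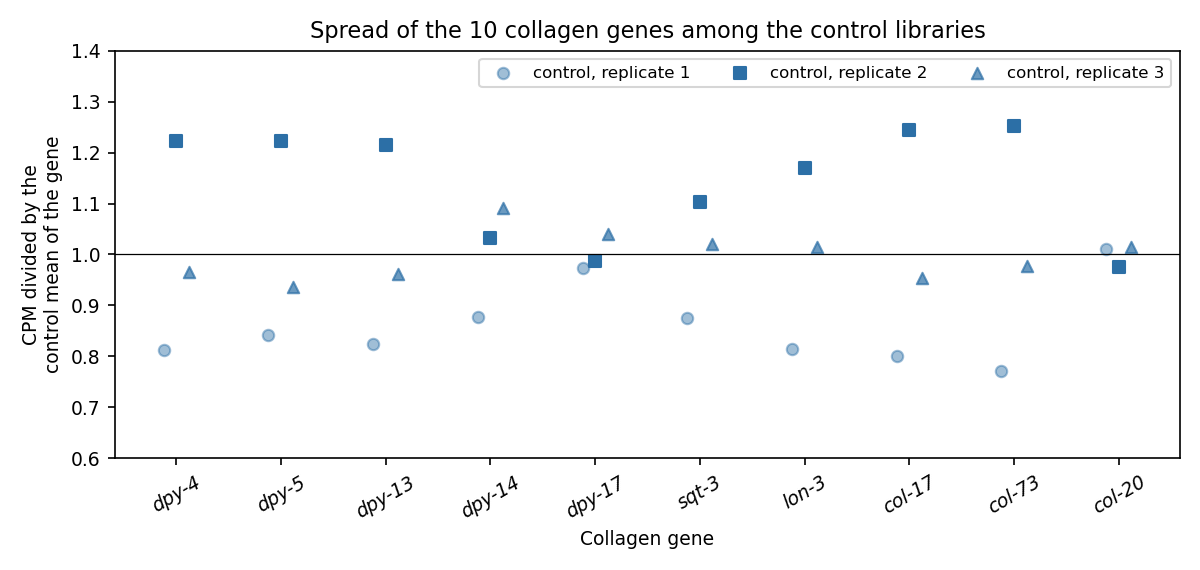
CPM of the 10 collagen genes in each control library divided by the control mean of the gene, one marker shape per replicate. Replicate 2 stands highest and replicate 1 lowest for 7 genes, while the 3 replicates of dpy-17 and col-20 lie close together.

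Genes with the most similar pattern were sought by the root-mean-square difference in centred log2(CPM + 1) over the 6 libraries, among 13204 genes with a mean of at least 1 CPM. The measure is a description and flattens differences among genes near 0 CPM. For dpy-13 the nearest genes were col-73 (0.150) and dpy-5 (0.164), for dpy-4 they were dpy-13 (0.169) and dpy-5 (0.202), and for dpy-5 they were dpy-13 (0.164) and col-41 (0.168). For col-17 they were dpy-13 (0.271) and col-73 (0.289), and for col-73 they were dpy-13 (0.150) and dpy-5 (0.219). Nearest to lon-3 were col-173 (0.046) and asp-14 (0.097), and nearest to col-20 were folt-2 (0.052) and hphd-1 (0.062), which are not collagens. For dpy-14 they were rocf-1 (0.037) and tts-2 (0.043), for dpy-17 Y110A2AL.4 (0.078) and D2063.1 (0.085), and for sqt-3 cyp-29A2 (0.055) and hbl-1 (0.068). Neither col-17 nor col-73 was among the 2 nearest genes of col-20. This follows from their fitted log2 changes of −8.15 and −9.75, against −2.25 for col-20. The measure takes in the contrast on which the 10 genes were chosen, so likeness or unlikeness among them is no separate evidence.

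Collagens are hydroxylated, trimmed by proteases and cross-linked before and after secretion. By edgeR, 10 of 16 tested genes listed for these steps were higher and 3 lower, beside 40.0% higher and 36.3% lower among all tested genes. Their median log2 change was 0.34. The largest changes were in doxa-1, nas-7 and nas-6. The gene doxa-1 is needed for the oxidase that cross-links cuticle. It had 11.108 ± 1.28 CPM in exposed animals and 2.09 ± 0.18 CPM in controls (log2 2.40, edgeR adjusted p = 9.74e-12). The astacin protease genes nas-7 and nas-6 rose by 1.61 and 1.55, and whether they act on cuticle collagens was not tested. Named after its value was seen because it cuts SQT-3, dpy-31 had 33.0 CPM in exposed animals and 30.9 CPM in controls and was not called (log2 0.095, edgeR adjusted p = 0.155), but its call depended on the setting. It was called higher with libraries scaled by size only (log2 0.29, edgeR adjusted p = 0.000414) and with a filter of 5 FPKM (log2 0.20, edgeR adjusted p = 0.00510), and called lower with limma on quantile-normalized FPKM (log2 −0.21, adjusted p = 0.00749). The prolyl hydroxylase gene dpy-18, also named after its value was seen, rose by 0.92.

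Of 29 tested regulators and effectors of molting, 21 were called higher and 4 lower by edgeR, where 40.0% and 36.3% of all tested genes were. With libraries scaled by size only, 24 and 2 of the 29 were, beside 7215 and 3409 of all 14705 tested genes. On quantile-normalized FPKM, 16 and 7 of 28 were, beside 3962 and 6132 of all 13917 tested genes. The Grainyhead factor gene grh-1 had 50.7 ± 2.75 CPM in exposed animals and 7.20 ± 0.53 CPM in controls, and rose by 2.82 on the log2 scale (edgeR adjusted p = 1.19e-17). The molting genes mlt-9 and mlt-11 rose by 2.75 and 2.23. Among regulators named after their values were seen, blmp-1 rose by 1.80, and nhr-23, a nuclear receptor that drives molting, fell by 0.26, a call that was lost with libraries scaled by size only (edgeR adjusted p = 0.220).

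Markers of the epidermis, the tissue that makes these collagens, moved with the groups. Of 16 tested epidermal genes that are not collagens, 14 were called higher and 1 lower by edgeR, against the same 40.0% and 36.3% of all tested genes. Their median log2 change was 1.36, and the summed level of the list was 1686 to 1753 CPM in exposed and 703 to 734 CPM in control libraries. The hedgehog-related gene wrt-2 and the junction genes ajm-1 and dlg-1 rose by 3.01, 1.90 and 1.85 on the log2 scale. The lowest value of the list was −1.35. Whether the listed genes mark the epidermis alone was not tested. Of a list of early embryo genes, 13 of 17 tested were called lower by edgeR, where 36.3% of all tested genes were. The list also holds genes such as mex-5, pos-1 and pie-1, whose RNA is present in the germline, so it does not measure embryos alone. The list summed to 3513 to 3614 CPM in exposed and 4461 to 4728 CPM in control libraries, and tbx-38, end-3 and tbx-37 fell by 1.71, 1.2 and 1.16. All 8 germline markers were called lower, 5 of 8 intestine markers were called higher and 3 lower, 6 of 8 muscle markers higher and 1 lower, 7 of 8 neuron markers higher, and 6 of 7 pharynx markers higher, beside 76.3% of all tested genes called in either direction. The median log2 change was 1.61 for pharynx, 1.33 for neuron, 0.77 for muscle, 0.20 for intestine and −0.60 for germline markers. A rise like that of the epidermal list was thus not limited to the epidermis. The part of tissue makeup in the collagen changes was not tested.

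The 10 genes encode proteins of similar length. In the Ensembl annotation of WBcel235, coding lengths gave 277 to 352 residues, with 352 for dpy-17, 322 for dpy-14 and 301 for sqt-3, and 277 for col-17, 285 for col-73 and 288 for col-20. The 3 F11G11 genes had 1 intron each, and so did dpy-17 and lon-3. The gene dpy-5 had none, and dpy-14 had 3. No sequences of these genes were analysed here.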

How the data were processed

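RNA of 6 whole-animal libraries was sequenced in pairs of reads. The submitters' processing notes name StringTie 1.3.3, DESeq2 1.20.0, HISAT2 2.0.5 and featureCounts 1.5.0-p3 without saying what each did. The build, the strand setting and the handling of reads that match several genes are not given in the sources used here, and reads shared between similar collagens were not tested. The deposited table gives raw counts per gene, FPKM by the authors, a signal that equals counts over a size factor by the authors, and the authors' log2 fold changes and p-values. Here the counts were tested with edgeR 4.0.16 (R 4.3.3; TMM scaling, filterByExpr, quasi-likelihood F test, Benjamini-Hochberg adjustment), with limma 3.58.1 and DESeq2 1.42.0 as alternatives, after checks on simulated data. In the simulated data, where few genes changed and as many rose as fell, 7.18% of calls were false. So narrow a simulation could not check the scaling for changes as wide as those seen here. The FPKM served to compare levels between genes. Ratios of pooled reads carry 95% exact intervals, which cover counting error only. Groups are those of the labels, with 3 libraries each. Nothing says that they came from separate cultures, so p-values measure only the spread between these libraries. The genes and lists were chosen with earlier results of these data known. All 10 genes are named, with up to 3 called genes per list by size of change (every furrow gene), the genes within 10 kb of the F11G11 run, those that overlap another of the 10, and the 2 nearest in pattern. For the muscle, intestine, neuron, germline and pharynx lists only counts and medians are given, and no gene is named. Names outside this rule are marked, apart from mex-5, pos-1 and pie-1, which are examples of their list. No sequence was used here.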

Additional observations from a re-analysis of the deposited data

How the results depend on the processing

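The 10 genes kept their direction, 7 lower and 3 higher, under all 15 alternatives, and the furrow and other body-shape collagen counts did not change. Leaving out a library gave −7.42 to −6.47 for dpy-4, −7.16 to −6.55 for dpy-5, −7.99 to −7.19 for dpy-13, −8.71 to −7.90 for col-17 and −10.12 to −9.57 for col-73 on the log2 scale. On log2(FPKM + 1) these 5 genes gave −5.56, −5.54, −5.76, −6.19 and −5.80, since the added 1 exceeds their exposed levels. Genes called numbered 5876 higher and 5344 lower, against 7215 and 3409 with libraries scaled by size only, 3962 and 6132 on quantile-normalized FPKM, 5699 to 5823 and 5143 to 5241 without 1 library. F11G11.5 turned to 0.13 with size scaling, 0.051 with a filter of 5 FPKM and 0.15 with quantile normalization, and dpy-31 to −0.21 with the last. In the main fit F11G11.5 stood at −0.056, and size scaling shifts the median gene up by 0.19. What moved the values in the other settings was not tested. With a replicate block, 5851 genes were called higher and 5345 lower, and 57 and 49 of the other cuticle collagens. Same-numbered libraries deviated with correlations of −0.0060, −0.0042 and −0.0121, so the numbers did not pair them. Of 774 values of 52 other genes followed across the settings, 762 kept their direction and call. The 52 include muscle, intestine, neuron, germline and pharynx markers, and phy-2, bli-4 and lin-42, which are not named above. Apart from col-41, the genes outside the 10 that were nearest in pattern were not followed. Many of the 52 genes were picked for the size of their change, so a stable call was likely from the start. Few exposed reads limit the precision of the 5 largest falls.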
